A study of Mus musculus with 6 samples.

Results

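Histone variants are the histones that a cell can place into chromatin outside DNA replication. The 10 genes described here were taken by symbol from a fixed list of mouse variant genes with polyadenylated transcripts, and all 10 were found among the 54232 genes of the count table. They are H2afx, H2afz, H2afv, H2afy and H2afy2 of the H2A family, H3f3a, H3f3b and Cenpa of the H3 family, and H1f0 and H1fx, which are linker histones. The list goes by gene identity and sets no threshold on a measured value, but it was drawn up with earlier results of these data known.

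Stromal cells were isolated from the uteri of D4 pseudopregnant mice and sequenced as bulk RNA, with 3 WT libraries and 3 libraries from mice with a conditional deletion of Pbrm1 (Pbrm1 cKO), to find the genes whose expression differs between them. Pbrm1 codes for a subunit of the SWI/SNF complex, which moves nucleosomes. Per the study's methods the Pbrm1 cKO mice carried floxed Pbrm1 alleles and PR-IRES-cre, a Cre driven by the progesterone receptor gene and so not confined to stroma, while the controls, called WT in the labels, are described as Pbrm1 fl/fl littermates. Mice were 8 to 12 weeks old, 5 to 10 uterine horns per preparation were pooled for both genotypes per the study's methods, and cells were plated for 4 hours, given fresh medium and collected 2 hours later. The study calls replicates of its tracks from these cells biological, while neither it nor the labels say which animals went into which sample, so p-values measure the spread between these samples.

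In nucleosomes the replication-dependent histones are made in S phase from intronless genes whose mRNAs end in a stem-loop, whereas variant genes mostly have polyadenylated mRNAs and are used through the cell cycle. H2A.Z (from H2afz and H2afv) and H3.3 (from H3f3a and H3f3b) are found at promoters and enhancers, macroH2A (from H2afy and H2afy2) marks repressed chromatin such as the inactive X chromosome, and H2A.X (from H2afx) is phosphorylated next to DNA breaks. CENP-A (from Cenpa) replaces H3 at centromeres, H1.0 (from H1f0) is the linker histone that accumulates in cells that have stopped dividing, and H1.10 (from H1fx) is a more distant linker variant. In the mouse uterus the stroma proliferates before implantation and then turns into decidua.

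Of the 10 genes, H2afz, H3f3a and H1f0 fell in Pbrm1 cKO cells and none rose. H2afz was at 51.3% of its WT level, H3f3a at 59.8% and H1f0 at 73.7%. The sister genes of the first 2, H2afv and H3f3b, were not called. The test was DESeq2's Wald test across all genes, with Benjamini-Hochberg adjustment over the 17474 genes tested and a threshold of 0.05, and all 10 members were among the genes tested. Over all tested genes 15.2% were called lower and 15.9% higher, against 3 and 0 of the 10 members. At an unadjusted p under 0.05 3 members were lower and 0 higher, and edgeR and limma called 0 members higher as well. Fitted log2 fold changes lay below 0 for 9 of the 10, H1fx being the exception, with a median of -0.25 over the members beside a median of -0.0007 over all tested genes. In 5 of the 10 members the ranges of the WT and Pbrm1 cKO values were separate, as they were in 48.6% of all tested genes, so that share is close to the background.

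**Figure D1:**
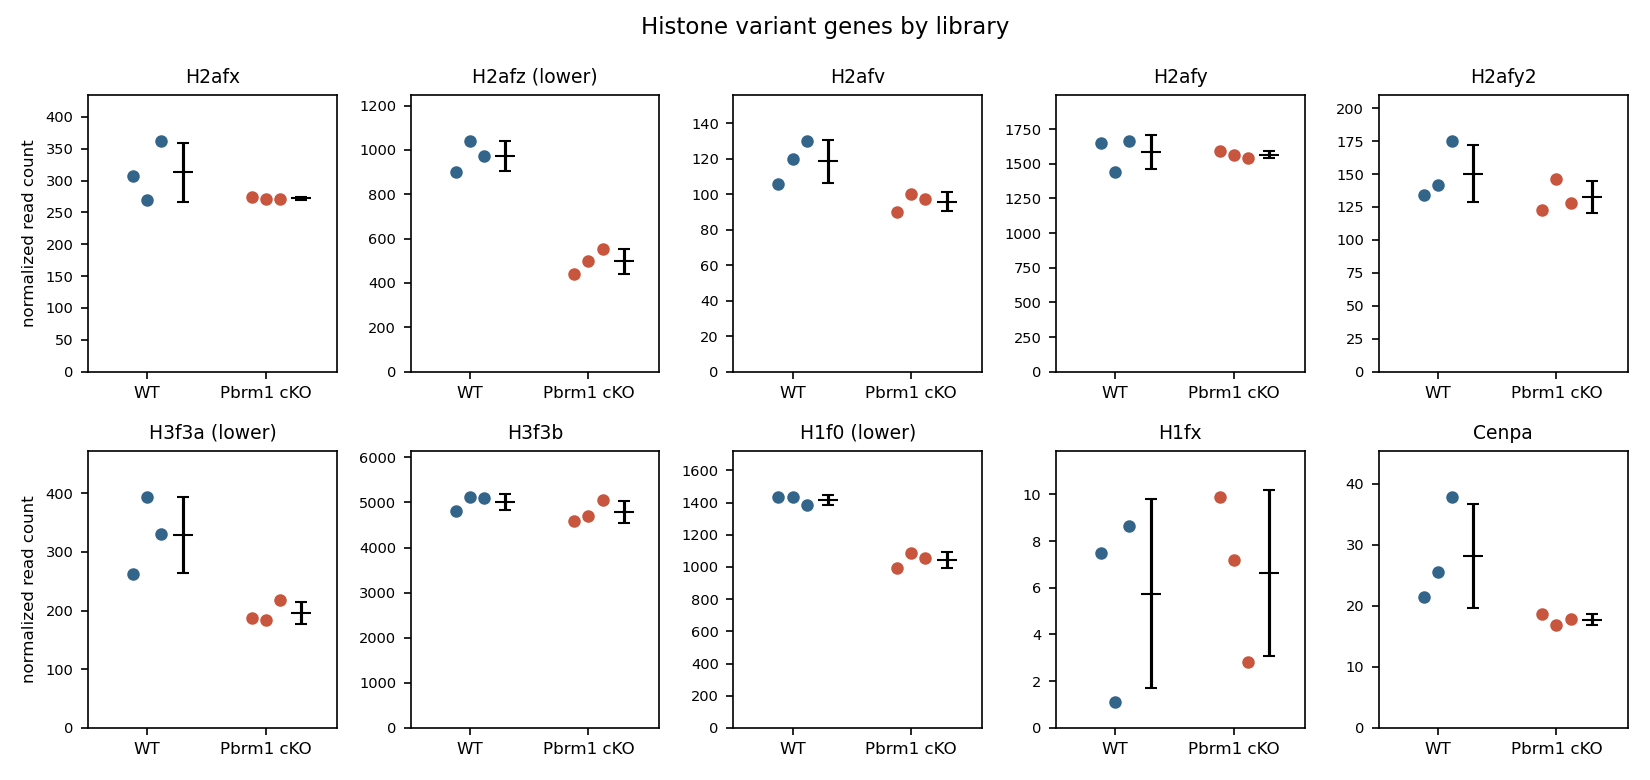
Normalized read count (vertical axis, from 0, own scale per gene) of each variant gene in the 3 WT and 3 Pbrm1 cKO libraries (points), with the mean and SD beside them (bar). The groups stand apart without overlap for H2afz, H3f3a and H1f0, the genes marked lower, and also for H2afv and Cenpa, where the gap was small.

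The libraries held 13253575 to 18338667 counts, a 1.38-fold range, and a normalized count is the read count divided by DESeq2's size factor for that library. Pbrm1 itself was 1354, 1385 and 1677 in WT and 397, 459 and 451 in Pbrm1 cKO libraries, 29.6% of WT (log2 fold change -1.76, SE 0.13), and since the table counts whole genes it does not separate the deleted exons. Replicates varied more in WT than in Pbrm1 cKO libraries, with a biological coefficient of variation of 0.16 against 0.0463. WT replicate 1 stood apart from the other WT libraries in the summed leukocyte markers (260 CPM against 609 and 627, where CPM is the count scaled to the library total) and endothelial markers (239 CPM against 490 and 492). It also had the lowest epithelial sum of the WT libraries (139 CPM against 242 and 260) and the highest stromal sum (8812 CPM against 7688 and 7698). Defining stromal genes were present in all libraries, Vim and Pdgfra among them, both named after their values were seen. Stromal markers fell in 7 of 14 and rose in 1 of 14, from Col3a1 at a log2 fold change of -2.17 to Pdgfra at 0.23, a call lost in 6 of the 16 alternatives. Of the leukocyte markers 13 of 14 tested rose, with summed levels of 260 to 627 CPM in WT and 2256 to 2431 CPM in Pbrm1 cKO libraries, Csf1r, a macrophage receptor, among them (2.59). Epithelial markers rose in 5 of 17 tested, from 139 to 260 CPM in WT to 282 to 298 CPM (3 called without Pbrm1 cKO replicate 1 or without Pbrm1 cKO replicate 2), and smooth muscle markers fell in 6 of 11 tested. Endothelial markers fell in 4 of 12 and rose in 1 of 12, and this count rests on single libraries, being 11 of 12 called without WT replicate 1 and 2 of 12 without any 1 of the other 5 libraries. In bulk RNA, fewer cells of a type and less RNA per cell cannot be told apart, and the part of these other cell types in the values of the variant genes was not tested.

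The promoter windows of the H2A.Z pair are shown first, because 1 gene of the pair fell and the other was not called. The windows hold 250 bases before and 50 after the RefSeq transcription start (GRCm38.p6), are written 5′ to 3′ in the direction of the gene, and were found for 9 of the 10 members, all but H2afx. Capitals mark matches on either strand to CCAAT (the NF-Y box, ATTGG on the other strand), to TTTGAA or TTTAAA (the letters of the cell cycle homology region), or to TTCCCGC or TTTGGCGC (forms of the E2F box).
H2afz, chr3:137864237-137864536, plus strand: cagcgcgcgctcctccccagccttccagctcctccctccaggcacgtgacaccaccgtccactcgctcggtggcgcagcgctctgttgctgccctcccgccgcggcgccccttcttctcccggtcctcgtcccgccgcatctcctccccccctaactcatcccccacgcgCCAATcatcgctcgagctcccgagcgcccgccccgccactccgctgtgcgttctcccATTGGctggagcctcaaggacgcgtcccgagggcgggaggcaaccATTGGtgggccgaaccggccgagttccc
H2afv, chr11:6444394-6444693, minus strand: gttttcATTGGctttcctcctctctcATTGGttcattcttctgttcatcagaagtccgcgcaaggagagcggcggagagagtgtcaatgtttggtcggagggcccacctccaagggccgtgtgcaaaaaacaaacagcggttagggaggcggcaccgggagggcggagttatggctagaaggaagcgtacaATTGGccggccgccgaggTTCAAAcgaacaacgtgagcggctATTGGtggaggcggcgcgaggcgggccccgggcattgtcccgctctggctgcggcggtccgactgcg
The H2afz window held 3 CCAAT matches, which began at -80, -23 and 23 from the start, and none of the other motifs. The H2afv window held 4 CCAAT matches and 1 TTTGAA match, on the reverse strand. CCAAT occurred in 37.4% of the 32851 windows of the same length, TTTGAA in 17.9%, TTTAAA in 13.2%, TTCCCGC in 4.6% and TTTGGCGC in 0.514%, so that most of these strings are common. A match is a string of letters and no evidence of a bound factor.

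H2afz (chr3:137864487-137866922, plus strand, GRCm38) is a protein-coding gene for H2A.Z.1, the major H2A.Z. Its normalized counts were 902, 1040 and 974 in WT and 442, 500 and 554 in Pbrm1 cKO libraries. Every Pbrm1 cKO library lay far below every WT library. The mean fell from 972 ± 68.9 to 499 ± 55.8 (SD, n = 3 each), a log2 fold change of -0.96 (SE 0.13, 95% interval -1.21 to -0.72, adjusted p = 7.46e-13). This was the largest fitted decrease among the members. Over the 16 alternative fits and call rules the fitted value lay between -1.04 and -0.87 and the call was kept in each.

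H2afv (chr11:6427229-6444443, minus strand) codes for H2A.Z.2, a nearly identical protein. Its normalized counts were 106, 120 and 130 in WT and 89.8, 99.9 and 97.6 in Pbrm1 cKO libraries. The lowest WT library was above the highest Pbrm1 cKO library by a small margin. The difference did not pass the test (log2 fold change -0.31, SE 0.21, 95% interval -0.71 to 0.10, adjusted p = 0.285). The interval leaves room for a decrease as well as for a slight increase.

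Within each library the ratio of H2afv to H2afz counts was 0.117, 0.115 and 0.133 in WT and 0.203, 0.200 and 0.176 in Pbrm1 cKO cells. The lesser gene of the pair thus took a greater share in every Pbrm1 cKO library. On the log2 scale (0.5 added to each count) the mean ratio went from -3.03 ± 0.11 to -2.37 ± 0.11, a difference of 0.66. An exact two-sided permutation test gave p = 0.10, the smallest that 3 against 3 libraries allow, and 0.167 after Benjamini-Hochberg adjustment over the 5 ratios examined. No ratio could therefore pass a threshold of 0.05 by this permutation test. The 5 ratios share genes with each other, so they are not independent of each other or of the tests of single genes.

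The H3.3 pair codes for 1 and the same protein from 2 genes, and here too a single gene was called.
H3f3a, chr1:180813556-180813855, minus strand: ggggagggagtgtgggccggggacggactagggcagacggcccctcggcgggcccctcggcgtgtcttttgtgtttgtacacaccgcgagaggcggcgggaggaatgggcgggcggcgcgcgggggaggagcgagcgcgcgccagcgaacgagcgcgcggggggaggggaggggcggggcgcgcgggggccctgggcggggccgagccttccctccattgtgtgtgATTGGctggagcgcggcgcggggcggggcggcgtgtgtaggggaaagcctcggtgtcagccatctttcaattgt
H3f3b, chr11:116024455-116024754, minus strand: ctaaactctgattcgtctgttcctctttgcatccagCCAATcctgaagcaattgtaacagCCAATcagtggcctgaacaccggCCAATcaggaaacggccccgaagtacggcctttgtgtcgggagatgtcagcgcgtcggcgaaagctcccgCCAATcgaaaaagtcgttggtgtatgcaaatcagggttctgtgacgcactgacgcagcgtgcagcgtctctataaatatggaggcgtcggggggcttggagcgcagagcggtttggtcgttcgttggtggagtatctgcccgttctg
The H3f3a window held 1 CCAAT match, in reverse orientation at -24. The H3f3b window held 4 CCAAT matches, all in forward orientation, between -214 and -97, and its GC content was 55.0% against 74.0% for H3f3a. Neither window held any of the other 4 motifs.

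H3f3a (chr1:180800832-180813943, minus strand) had normalized counts of 263, 393 and 330 in WT and 187, 184 and 218 in Pbrm1 cKO libraries. The WT libraries were spread more widely, and none reached down to the Pbrm1 cKO range. The mean fell from 329 ± 65.0 to 196 ± 18.6 (SD, n = 3 each; log2 fold change -0.74, SE 0.18, 95% interval -1.10 to -0.38, adjusted p = 3.79e-04). With each library left out in turn the value ranged from -0.88 (without WT replicate 1, the lowest WT library for this gene) to -0.60 (without WT replicate 2, the highest, adjusted p = 0.0129), and the call was kept.

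H3f3b (chr11:116021912-116027962, minus strand) had normalized counts of 4805, 5113 and 5104 in WT and 4594, 4701 and 5053 in Pbrm1 cKO libraries. The ranges overlapped. The log2 fold change was -0.07 (SE 0.08, adjusted p = 0.622), and the 95% interval, -0.23 to 0.10, leaves out a decrease of the size seen for H3f3a. H3f3b had the narrower interval of the pair, with 4495 to 5883 reads in each library.

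The ratio of H3f3b to H3f3a counts was 18.3, 13 and 15.5 in WT against 24.5, 25.6 and 23.2 in Pbrm1 cKO libraries, without overlap. The log2 difference was 0.66 (WT 3.95 ± 0.24, Pbrm1 cKO 4.61 ± 0.07, n = 3 each; exact permutation p = 0.10, adjusted 0.167). The height of this ratio depends on processed pseudogenes of H3f3a, which held about as many reads as the gene itself (285, 331 and 342 in WT and 184, 265 and 233 in Pbrm1 cKO libraries). With their reads added to the parent genes, an alternative chosen after seeing the data, the ratio was 8.49, 6.75 and 7.34 in WT and 12.5, 11.9 and 11.6 in Pbrm1 cKO libraries, again without overlap, and the log2 difference was 0.68. Because H3f3b supplied most of the H3.3 counts, the summed variant counts of the H3 family, Cenpa included, were 94.3% of WT, at 363 ± 17.5 CPM in WT and 343 ± 20.4 CPM in Pbrm1 cKO libraries.

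**Figure D2:**
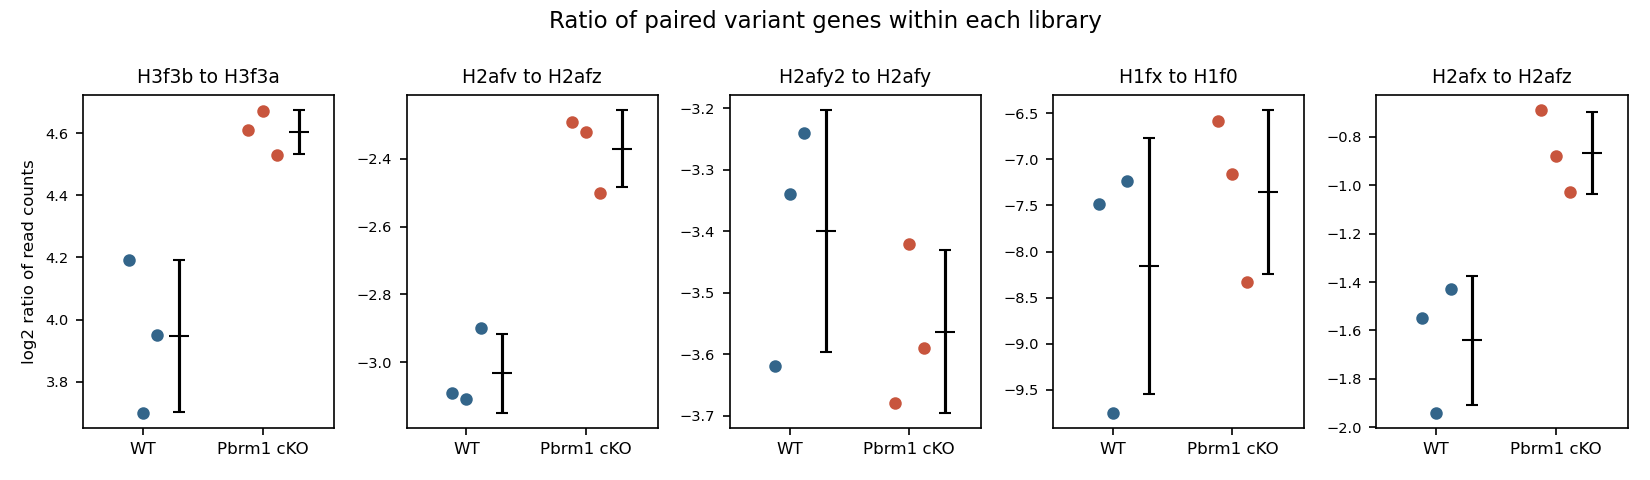
Log2 ratio of the read counts of 2 variant genes within each library (vertical axis, own scale per panel that does not start at 0), with 3 WT and 3 Pbrm1 cKO libraries as points and mean and SD as bars. H3f3b to H3f3a, H2afv to H2afz and H2afx to H2afz were higher in all 3 Pbrm1 cKO libraries, while H2afy2 to H2afy and H1fx to H1f0 overlapped.

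Reads of such genes can be lost to copies elsewhere in the genome, since the authors' counting left out reads that map to more than 1 place. Transcript sequences of GENCODE release 21 were therefore searched for 50-base windows, the read length, that also occur in another gene. For H3f3a 27.1% of the windows were shared, and 38 processed pseudogenes held at least 1 of them. Of these Gm6421 (chr13:117358212-117358620) held most of the reads. Gm6421 read 280, 336 and 343 in WT and 167, 201 and 196 in Pbrm1 cKO libraries, and like H3f3a it was lower (log2 fold change -0.77, SE 0.16, adjusted p = 2.23e-05). Reads of Gm6421 and of H3f3a cannot be told apart in their shared windows, so the counts of both are uncertain. In an alternative chosen after seeing the data, the reads of the processed pseudogenes were added to their parent genes. The log2 fold change was then -0.755 for H3f3a and -0.950 for H2afz, both still called. These sums hold only reads that were counted, so they cannot restore reads left out for mapping to more than 1 place.

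For H2afz 35.4% of the windows were shared, the greatest share among the members, mainly with Tmcc1 (30.9% of the windows) and the processed pseudogene Gm8203 (16.9%). Tmcc1, a protein-coding gene, read 439, 466 and 466 in WT and 643, 622 and 572 in Pbrm1 cKO libraries and rose (log2 fold change 0.42, SE 0.12, adjusted p = 0.00162), opposite in sign to H2afz. That call was lost in 2 of the 16 alternatives, with the length trend removed (0.18, adjusted p = 0.232) and where a call also needs more than a 1.5-fold change. The counts of H2afz are uncertain in the windows shared with Tmcc1, whose reads were not added to H2afz in any alternative. Gm8203 (chr6:116173737-116174123, plus strand) lies within the span of Tmcc1 (chr6:116018611-116193486), which is on the minus strand. Strand-specific counting keeps reads of such an antisense copy apart from Tmcc1, but the strand of the windows shared with Tmcc1 was not recorded. Gm8203 read 26.7, 32.2 and 34.6 in WT and 21.7, 20.0 and 26.3 in Pbrm1 cKO libraries, few reads beside those of H2afz. Shared windows made up 15.4% for H2afy2, 9.66% for H2afx, 6.86% for H3f3b, 1.54% for Cenpa and 0 for H2afv. Those of H2afx were shared with replication-dependent H2A genes among others, and those of H1fx (14.0%), H2afy (5.94%) and H1f0 (5.68%) lay in 1 annotated antisense gene each, which strand-specific counting keeps apart.

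H1f0 and Cenpa are shown next, the first as a member that fell and whose window held none of the motifs, the second as the member whose window held most kinds of them.
H1f0, chr15:79027962-79028261, plus strand: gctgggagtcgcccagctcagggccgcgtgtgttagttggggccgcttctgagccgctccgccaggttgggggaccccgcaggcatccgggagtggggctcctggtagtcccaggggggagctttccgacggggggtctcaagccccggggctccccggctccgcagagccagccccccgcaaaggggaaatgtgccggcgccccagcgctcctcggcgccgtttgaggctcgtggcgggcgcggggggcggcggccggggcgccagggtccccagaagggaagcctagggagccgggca
Cenpa, chr5:30666636-30666935, plus strand: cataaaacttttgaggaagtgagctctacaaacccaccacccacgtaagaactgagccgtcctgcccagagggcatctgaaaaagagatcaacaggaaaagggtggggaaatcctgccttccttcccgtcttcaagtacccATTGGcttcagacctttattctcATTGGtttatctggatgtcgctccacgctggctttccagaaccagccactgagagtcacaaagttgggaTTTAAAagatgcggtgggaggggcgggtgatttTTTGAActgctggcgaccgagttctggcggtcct
The Cenpa window held 2 CCAAT matches at -109 and -86, TTTAAA at -17 and TTTGAA at 17. The windows of H1f0, H1fx and H2afy held no match to any of the 5 motifs, and that of H2afy2 held 1 CCAAT match. CCAAT was thus present in windows of called and uncalled members alike. The H1f0 window lies wholly before 79028450, where the counted gene begins, so the bases next to that start were not searched.

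H1f0 (chr15:79028450-79030504, plus strand) is a single-exon gene. Its normalized counts were 1432, 1432 and 1383 in WT and 991, 1084 and 1056 in Pbrm1 cKO libraries. Both groups were tight and clearly apart. The mean fell from 1415 ± 28.5 to 1044 ± 47.5 (SD, n = 3 each; log2 fold change -0.44, SE 0.09, 95% interval -0.62 to -0.26, adjusted p = 2.48e-05). The change is under 1.5-fold, so the gene is not counted where a call also needs more than a 1.5-fold change.

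H1fx (chr6:87980421-87981637, minus strand), also of a single exon, was barely detected, with 7, 1 and 8 reads in WT and 10, 9 and 3 reads in Pbrm1 cKO libraries. Counts this low cannot show a difference. The log2 fold change of 0.20 had an SE of 0.91 and a 95% interval from -1.59 to 1.99 (adjusted p = 0.908). Its sign turned without WT replicate 2 (-0.29), the library with 1 read, and without Pbrm1 cKO replicate 1 (-0.19). The log2 ratio of H1fx to H1f0 (WT -8.15 ± 1.39, Pbrm1 cKO -7.36 ± 0.89, n = 3 each; exact permutation p = 0.500, adjusted 0.500) rests on the same library, its difference going from 0.80 to 0.001 without WT replicate 2.

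Cenpa (chr5:30666777-30674830, plus strand) read 21.4, 25.5 and 37.8 in WT against 18.7, 16.8 and 17.8 in Pbrm1 cKO libraries (normalized counts). All Pbrm1 cKO values lay below all WT values, the nearest by under 3 counts. The difference did not pass the test (log2 fold change -0.67, SE 0.44, 95% interval -1.52 to 0.18, adjusted p = 0.260), and the adjusted p ranged from 0.0854 to 0.628 over the alternatives. Without WT replicate 3 the log2 fold change was -0.404. With 19 to 35 reads a library and a WT coefficient of variation of 30.3%, the interval includes a decrease of the size seen for H3f3a as well as no change.

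H2afx (chr9:44334694-44336077, plus strand), a single-exon gene whose mRNA can end either in a stem-loop or in a poly(A) tail, read 308, 270 and 362 in WT against 274, 271 and 271 in Pbrm1 cKO libraries. The WT range enclosed the Pbrm1 cKO range. The log2 fold change was -0.20 (SE 0.16, 95% interval -0.51 to 0.10, adjusted p = 0.356), and it moved to -0.304 without WT replicate 2 and to -0.090 without WT replicate 3. The ratio of H2afx to H2afz counts in the same library went from 0.341, 0.259 and 0.372 in WT to 0.621, 0.542 and 0.490 in Pbrm1 cKO cells (log2 difference 0.77, exact permutation p = 0.10, adjusted 0.167). Of these 2 genes only H2afz was called lower.

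Of the macroH2A genes, H2afy (chr13:56073619-56136361, minus strand) read 1651, 1442 and 1664 in WT against 1590, 1567 and 1545 in Pbrm1 cKO libraries. The groups overlapped, and the Pbrm1 cKO mean stood at 98.9% of WT. The log2 fold change was -0.02 (SE 0.10, 95% interval -0.21 to 0.18, adjusted p = 0.929), and its sign turned under total count scaling, without WT replicate 1 and without WT replicate 3. H2afy2 (chr10:61738665-61784147, minus strand) had 134, 142 and 175 in WT and 123, 146 and 128 in Pbrm1 cKO libraries, again overlapping (log2 fold change -0.18, SE 0.20, 95% interval -0.57 to 0.21, adjusted p = 0.554), a value that was -0.059 without WT replicate 3. Their log2 ratio, H2afy2 to H2afy, was -3.40 ± 0.20 in WT and -3.56 ± 0.13 in Pbrm1 cKO cells (n = 3 each; exact permutation p = 0.30, adjusted 0.375), and the difference ranged from -0.274 to -0.085 with 1 library left out.

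**Figure D3:**
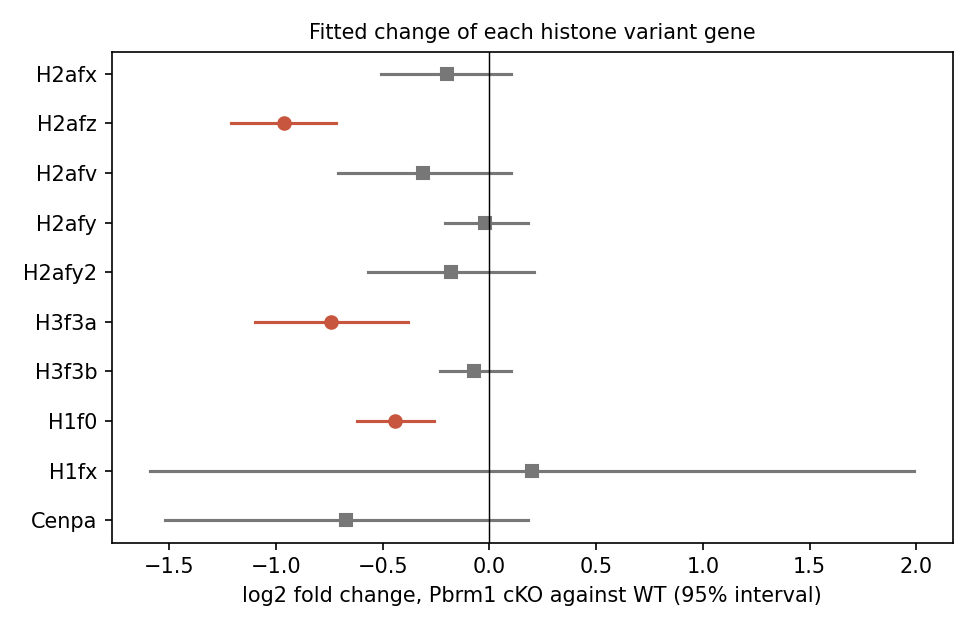
Log2 fold change of each variant gene in Pbrm1 cKO against WT cells (horizontal axis), with the 95% interval as a line, circles for the genes called lower and squares for those not called. The intervals of H2afz, H3f3a and H1f0 lie wholly below 0, that of H3f3b is narrow and includes 0, and that of H1fx runs from -1.59 to 1.99.

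Levels of different genes were compared as CPM per kilobase of the exons that the authors' counting joined for a gene. In WT cells H3f3b was highest at 114 ± 4.36, then H1f0 at 46.7 ± 0.961, H2afz at 37.1 ± 2.77, H2afy at 15.8 ± 1.19, H2afx at 15.3 ± 2.25, H3f3a at 6.35 ± 1.28, H2afv at 4.91 ± 0.508, H2afy2 at 4.68 ± 0.685, Cenpa at 0.326 ± 0.0991 and H1fx at 0.319 ± 0.225 CPM per kilobase (SD, n = 3 each). H2afy and H2afx overlapped in that order, as did H3f3a with H2afv, H2afv with H2afy2, and Cenpa with H1fx, while the other neighbours did not. In Pbrm1 cKO cells H2afz stood at 19.3 ± 2.29, still above H2afy at 15.8 ± 0.139, and H3f3a at 3.84 ± 0.397 had a mean below those of H2afv (4.02 ± 0.232) and H2afy2 (4.17 ± 0.371), with overlapping ranges. The place of H3f3a in this order is uncertain, since with the reads of its processed pseudogenes added it stood at 13.1 ± 1.95 in WT, overlapping H2afx (15.4 ± 2.31), and at 7.84 ± 0.724 in Pbrm1 cKO cells, above H2afv and H2afy2 without overlap. Genes with long joined exons, such as Cenpa (5860 bases), appear lower on this scale if their main transcript is shorter.

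Against the replication-dependent genes of their families the variants took a larger share in Pbrm1 cKO cells. In the H2A family the variant genes supplied 90.5, 90.0 and 90.6% of WT counts against 93.9, 94.1 and 92.2% of Pbrm1 cKO counts, and in the H3 family 92.1, 92.8 and 92.2% against 96.8, 96.6 and 96.4%. In the H1 family the shares were 46.4, 43.6 and 43.1% against 47.4, 49.2 and 46.7%. The groups did not overlap in any of the 3 families, and each exact two-sided permutation test gave p = 0.10, the smallest possible, also after adjustment over the 3 families. The shares rose while the variants' own mean sums were lower, because the replication-dependent mean sums were lower still. For H3 the variant means lay close together beside their SD (363 ± 17.5 CPM in WT and 343 ± 20.4 CPM in Pbrm1 cKO libraries). These sums were not tested. In CPM, the H2A variants were at 82.8% of WT and the replication-dependent H2A genes at 54.9%. The H3 variants were at 94.3% and the replication-dependent H3 genes at 39.8%. The H1 variants were at 74.8% and the replication-dependent H1 genes at 65.2%. Family genes were taken by symbol, so Hist3h2a, listed apart below, was counted here with the replication-dependent H2A genes. Its normalized level was 160% of WT (23 to 71 reads a library), which raises the 54.9%. H2afj, with 209 to 293 reads a library, was in neither part of the H2A share. The labels describe random and poly(T) priming and the study's methods poly(A) selection, and these shares depend on which was used, since stem-loop mRNAs are mostly lost in poly(A) selection.

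**Figure D4:**
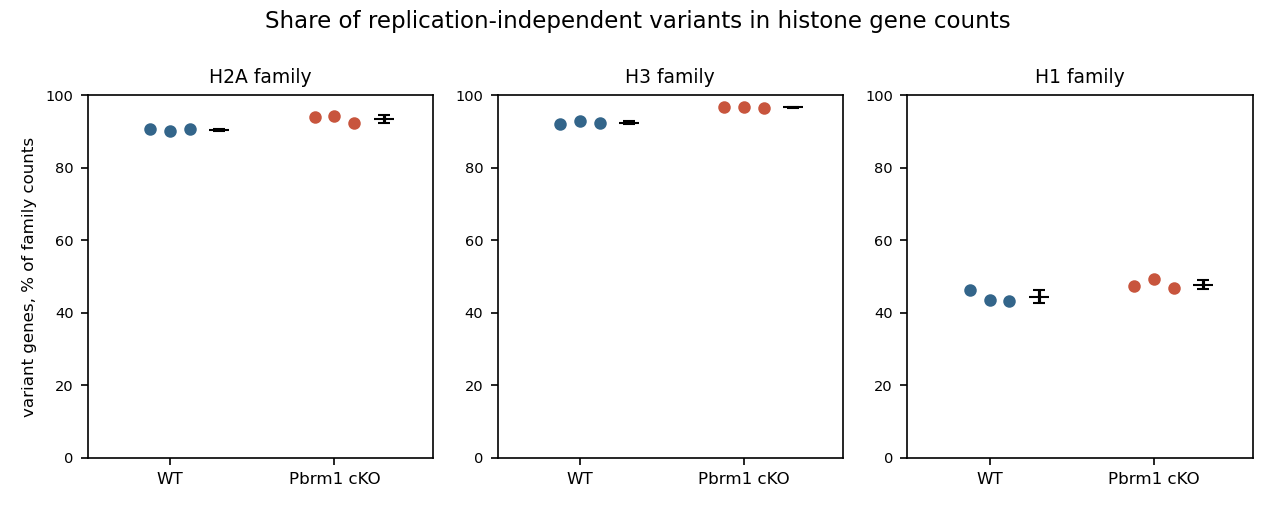
Share of the counts of a histone family that came from its replication-independent variant genes (vertical axis, percent from 0 to 100) in 3 WT and 3 Pbrm1 cKO libraries (points; bars, mean and SD). The H3 share was 92.1 to 92.8% in WT and 96.4 to 96.8% in Pbrm1 cKO libraries, and the H1 share was 43.1 to 46.4% and 46.7 to 49.2%.

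Of 14 other histone genes, listed apart from the members and from the replication-dependent genes, 5 had no reads and 4 were tested. The list was drawn up for replication-independent or tissue-restricted histones, and whether each gene, Hist4h4 included, belongs to that class was not tested. Hist4h4, an H4 gene, fell (log2 fold change -1.74, SE 0.24, adjusted p = 2.79e-11). H2afj, an H2A gene for H2A.J, gave -0.32 (SE 0.17, adjusted p = 0.137), Hist1h2ba 0.05 (SE 0.37, adjusted p = 0.946) and Hist3h2a 0.68 (SE 0.33, adjusted p = 0.111), the last being called by edgeR (adjusted p = 0.0366). Among 52 tested replication-dependent genes 31 fell and 1 rose, with a median log2 fold change of -1.41. That median lies below the value of every member, H2afz included.

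Of 9 genes for chaperones that escort H3.3, 2 rose and 2 fell (median 0.08), beside 15.9% and 15.2% of all tested genes. Daxx (0.43, adjusted p = 0.00177), which places H3.3 at repeats together with Atrx, and Ubn1 (0.34, adjusted p = 0.00800), of the HIRA complex, rose. Asf1a, which hands H3 to HIRA, fell from 479, 485 and 465 to 297, 303 and 358 normalized counts (-0.58, adjusted p = 1.20e-04), and Nasp, which stores soluble H3, fell by a log2 change of -0.30 (adjusted p = 0.00325). Atrx (0.03, adjusted p = 0.823; -0.225 and called lower, adjusted p = 0.0322, with the length trend removed) and Dek (-0.07, adjusted p = 0.663) were not called. Ubn1 lost its call in 5 of the 16 alternatives and Nasp in 3 of them, and of the 9 genes 2 were called without Pbrm1 cKO replicate 1 and 0 where a call also needs more than a 1.5-fold change.

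Of 13 genes for the exchange of H2A.Z, 2 rose and 1 fell (median -0.06). Ep400, a remodeler ATPase that inserts H2A.Z, rose from 911, 1037 and 1017 to 1610, 1597 and 1569 normalized counts, without overlap, a log2 fold change of 0.69 (SE 0.10, adjusted p = 4.78e-11) that is opposite in sign to that of H2afz. Ino80, whose complex acts on H2A.Z nucleosomes, rose by 0.47 (adjusted p = 1.41e-04). Actl6a, an actin-related subunit, fell (-0.26, adjusted p = 0.0227), a call lost in 6 of the 16 alternatives. The helicase genes Ruvbl2 (-0.15, adjusted p = 0.210) and Ruvbl1 (0.02, adjusted p = 0.912) were not called.

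In the CENP-A group 4 of 8 genes fell and 1 rose (median -0.33). Mis18a (-0.84, adjusted p = 0.00947), which licenses centromeres for CENP-A loading, fell, as did Cenpn (-1.30, adjusted p = 0.00597) and Cenpc1 (-0.39, adjusted p = 0.00611), which bind CENP-A nucleosomes. Hjurp, the CENP-A chaperone, rose (0.32, adjusted p = 0.0215), a call lost in 6 of the 16 alternatives. The H3-H4 binding Rbbp7, named after its value was seen, fell (-0.27, adjusted p = 0.0324), a call lost in 9. The calls of Mis18a and Cenpn were each lost in 2 alternatives and that of Cenpc1 in 5. Rbbp4 (-0.19, adjusted p = 0.254) and Cenpb (-0.17, adjusted p = 0.207) were not called, though Rbbp4 was called lower in 2 alternatives. The number called was 2 without WT replicate 2, without Pbrm1 cKO replicate 1 or without Pbrm1 cKO replicate 3, and 3 without Pbrm1 cKO replicate 2. Cenpn, like Cenpa, was a low gene, with fewer than 50 normalized counts in each library.

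Among 9 kinase and reader genes of H2A.X only Rnf168, a ubiquitin ligase at DNA breaks, was called (-0.42, adjusted p = 9.40e-04), and the median was 0.12 (2 called without WT replicate 1, and 0 where a call also needs more than a 1.5-fold change). Baz1b (0.20, adjusted p = 0.0948, called higher without WT replicate 1), a kinase of H2A.X, and Eya3 (0.07, adjusted p = 0.787), a phosphatase, were not called. Of 9 genes linked to macroH2A and linker histones 5 fell and none rose (median -0.39). Hells, a remodeler of heterochromatin, fell from 819, 820 and 998 to 288, 276 and 327 normalized counts (-1.57, adjusted p = 6.39e-28), far more than either macroH2A gene. Cbx5 (-0.45), Cbx3 (-0.44), Hmgb1 (-0.41) and Hmgn1 (-0.34, named after its value was seen) followed, with adjusted p of 2.44e-06, 0.00579, 0.0447 and 0.00138, and Hmgb1 lost its call in 10 of the 16 alternatives, Cbx3 in 3, Hmgn1 in 2 and Cbx5 in 1.

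Of 9 replication-coupled or general chaperone genes 5 fell and none rose (median -0.20), 4 of these calls being kept in all 16 alternatives and that of Npm1 lost in 12 of them. Asf1b fell by a log2 change of -1.82 (adjusted p = 6.49e-08), Chaf1b of -1.34 (adjusted p = 3.26e-09), Chaf1a of -1.10 (adjusted p = 4.25e-08) and Mcm2 of -0.59 (adjusted p = 6.09e-07), while Ssrp1, of the FACT complex, was at -0.03 (adjusted p = 0.867). Npm1, named after its value was seen, was at -0.20 (adjusted p = 0.0471), and Nap1l4 gave -0.18 (adjusted p = 0.0807), called lower without WT replicate 1 alone. Asf1b and its paralog Asf1a fell by -1.82 and -0.58, a difference that was not tested.

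**Figure D5:**
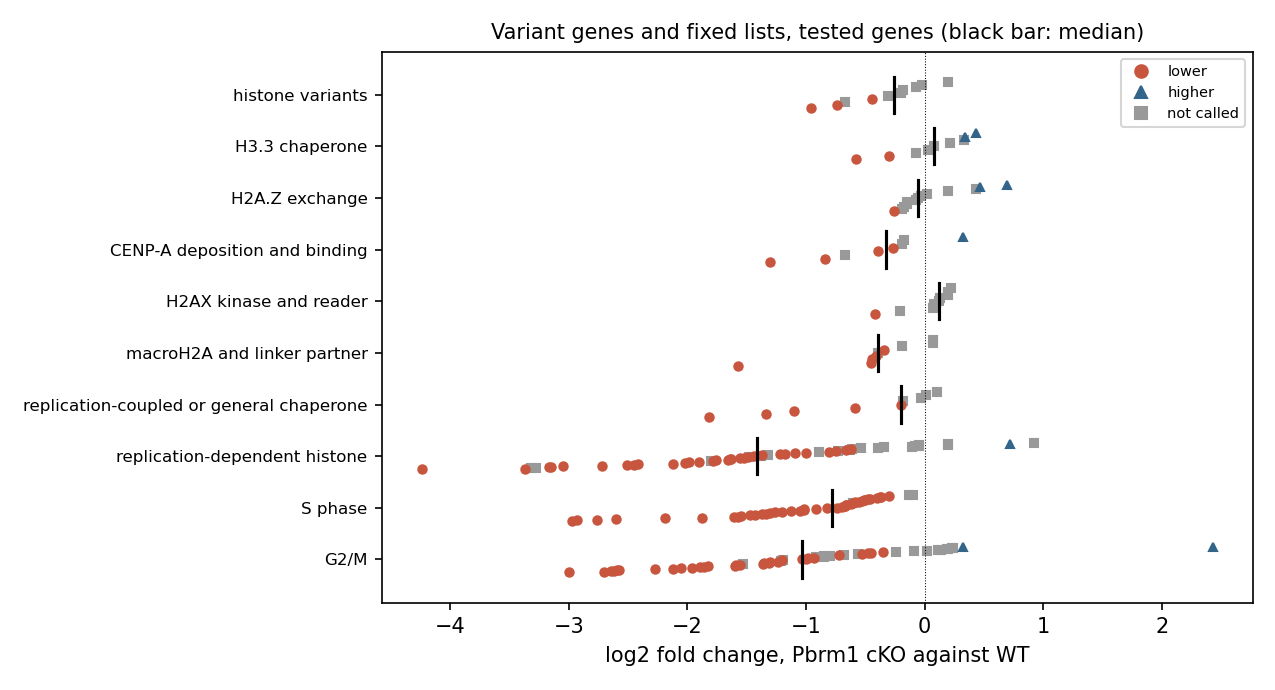
Log2 fold change in Pbrm1 cKO against WT cells (horizontal axis) of each tested gene of the histone variants and of 9 other lists (rows), with circles for genes called lower, triangles for genes called higher, squares for genes not called and a black bar at the median of the row. The replication-dependent histone, S phase and G2/M rows extend far to the left of the variants, with medians of -1.41, -0.78 and -1.03 against -0.25.

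Cell cycle genes were lower in the same libraries. Of 44 S phase genes 41 fell and none rose, and their summed level was 2332 to 2386 CPM in WT and 1414 to 1434 CPM in Pbrm1 cKO libraries. Cdc6 (-2.97), Clspn (-2.93), Exo1 (-2.76) and Ccne2 (-2.60) fell most. Of 51 G2/M genes, Cenpa left out, 31 fell and 2 rose, and their sum was 1601 to 1668 against 1258 to 1290 CPM. Nuf2 (-3.00), Cdk1 (-2.70), Ttk (-2.64) and Kif2c (-2.62) fell most, and the 2 that rose were Hjurp and Gas2l3 (2.43), the latter named after its value was seen. The part of cell cycle state in the lower H2afz, H3f3a and H1f0 was not tested.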

How the data were processed

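Libraries of 3 WT and 3 Pbrm1 cKO samples were compared. Single-end reads had been trimmed (cutadapt), aligned to GRCm38 (HISAT2) and assigned by the authors to GENCODE release 18 genes (featureCounts 1.6.4, option for the reverse strand, multi-mapping reads not counted). The deposited table holds raw counts per gene and library, not normalized, with replicates kept apart. Intervals cover counting and replicate error only, since reads carried no molecular identifiers. The kit in the labels (total RNA, depletion) differs from that in the study's methods (poly(A) selection).

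Symbols matched 99.7% of identifiers. DESeq2 1.42.0 in R 4.3.3 was fitted to all genes (Wald test, no covariates), with Benjamini-Hochberg adjustment over all genes tested. Alternatives used edgeR 4.0.16, limma 3.58.1 with voom weights, other size factors, removal of a length trend, other filters, a stricter call rule (over 1.5-fold, p under 0.01, adjusted p under 0.1), a replicate block and each library left out. Ratios and shares were computed from raw counts within a library in Python 3.11.15. The count model was tested on simulated data. Promoter windows are RefSeq's, GRCm38.p6.

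The members and lists were chosen with earlier results of these data known. Named were all members and Pbrm1, copies of members, other histone genes with a mean count of at least 10, and from each list up to 4 called genes of largest change, with up to 2 abundant uncalled genes in chaperone, exchange, CENP-A and H2AX lists. Genes outside this rule are marked. Some items are not reported here.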

Additional observations from a re-analysis of the deposited data

How the results depend on the processing

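H2afz and H3f3a were called lower in all 16 alternatives. H1f0 was called in 15, the stricter rule excepted, under which 2 variant genes were lower and which gave 1665 genes higher and 1452 lower over all genes against 2774 and 2658. It also left 0 of 4 calls in the H3.3 chaperone list, 1 of 3 for H2A.Z exchange, 2 of 5 for CENP-A, 0 of 1 for H2AX, 1 of 5 for macroH2A and linker partners and 5 of 8 for stromal markers. The other 7 members were called in none of the alternatives that gave them an adjusted p, which were 11 for H1fx and 16 for the rest. Leaving out each library in turn gave 1923 to 2915 genes higher and 1790 to 2660 lower. Same-numbered WT and Pbrm1 cKO libraries did not deviate together (correlations 0.0401, -0.0388 and -0.000927). These values show no pairing by number, but they cannot tell whether the samples were prepared in pairs. With a replicate block 2175 genes were higher and 1828 lower, and the same 3 variant genes were called, while the CENP-A list went from 5 calls to 1, and the macroH2A and linker list and the endothelial markers from 5 to 3 each. The sign turned for H2afy under total count scaling (0.002) and for Atrx with the length trend removed (-0.225, then called lower). It also turned when 1 library was left out, with values from -0.084 to 0.016 for H2afy, -0.289 to 0.614 for H1fx, -0.168 to 0.294 for Hist1h2ba, -0.015 to 0.040 for Ruvbl1, -0.065 to 0.175 for Eya3 and -0.088 to 0.030 for Ssrp1. The cause was not tested. With 1 library left out, the ratio differences ranged from 0.537 to 0.781 for H3f3b to H3f3a, 0.624 to 0.728 for H2afv to H2afz and 0.621 to 0.881 for H2afx to H2afz, and with the pseudogene reads added they were 0.681, 0.652 and 0.766. H1fx, at 1 to 10 reads a library, is limited by depth, and the ratios and shares by 3 libraries a group.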
